A study of Homo sapiens with 9 samples.

Results

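CCT (also called TRiC) is the chaperonin of the cytosol, and its 8 subunits are encoded by TCP1, CCT2, CCT3, CCT4, CCT5, CCT6A, CCT7 and CCT8. CCT6B, a paralog of CCT6A known mainly from testis, was followed beside them. The members were the probe sets annotated to exactly 1 gene symbol among these 9, which gave 26 of 49293 probe sets tested and 9 of 18132 genes. CCT5 had 6 probe sets, CCT3 had 5, CCT4 and CCT8 had 4 each, TCP1 and CCT2 had 2 each, and CCT6A, CCT7 and CCT6B had 1 each. A further 4 probe sets named a subunit together with other genes and were not members.

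The study measured total RNA of Y79 cells, a human retinoblastoma line, on 9 Affymetrix PrimeView arrays. GNPs-HDM2 cells received gold nanoparticles that carry a peptide of HDM2, the human MDM2 protein that restrains p53 (n = 3). GNPs cells received bare gold nanoparticles (n = 3), and Control cells received nothing (n = 3). All were grown in RPMI medium, and all come from 1 cell line, so other retinoblastomas are not represented. The tags of every sample name Y79, while the source labels of the treated samples spell the line Y97. The sources used here give no dose, no exposure time and no culture of origin, and the spread behind each p-value is therefore that between arrays, which may be technical.

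CCT is built from a pair of stacked rings with 1 copy of each subunit per ring, and it closes over an unfolded protein and releases it by ATP hydrolysis. Actins and tubulins need it to fold, as do many proteins with WD40 propellers, including G protein beta subunits. In the retina it takes part in assembling transducin and the BBSome, a complex for traffic into the photoreceptor cilium, and variants of CCT2 cause an inherited retinal dystrophy. Each position in the ring is held by a different gene product.

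The members lie on 8 human chromosomes, with CCT4 and CCT7 both on chromosome 2. RefSeq start-site windows on GRCh38.p14 were given for 8 of the 9 genes, 10 windows in all, and CCT6A had no entry. In most of them the bases upstream of the start overlap another gene or another start of the same gene: MRPL18 for TCP1, TSACC for CCT3, COMMD1 for CCT4 and ZNF830 for CCT6B. The 3 windows that overlap no annotated gene are shown, and they belong to CCT2, CCT7 and CCT8. All 8 subunits were lower with GNPs-HDM2 as deposited, so that fall does not single these 3 out. Each line gives the 250 bases before the start, 5′ to 3′ on the strand of the gene, and capitals mark matches on either strand to the motifs described after them.
CCT2 chr12:69585209-69585458 (+): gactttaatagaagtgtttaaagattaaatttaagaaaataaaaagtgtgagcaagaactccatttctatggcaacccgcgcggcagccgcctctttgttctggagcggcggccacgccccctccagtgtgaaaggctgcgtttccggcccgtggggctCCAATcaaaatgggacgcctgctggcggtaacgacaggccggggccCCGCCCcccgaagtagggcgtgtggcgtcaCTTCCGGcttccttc
CCT7 chr2:73234058-73234307 (+): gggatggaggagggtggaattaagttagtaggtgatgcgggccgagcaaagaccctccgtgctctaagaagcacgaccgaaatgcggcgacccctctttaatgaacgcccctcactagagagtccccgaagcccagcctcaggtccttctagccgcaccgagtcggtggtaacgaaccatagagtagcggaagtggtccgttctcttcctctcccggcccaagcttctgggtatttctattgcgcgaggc
CCT8 chr21:29073649-29073898 (-): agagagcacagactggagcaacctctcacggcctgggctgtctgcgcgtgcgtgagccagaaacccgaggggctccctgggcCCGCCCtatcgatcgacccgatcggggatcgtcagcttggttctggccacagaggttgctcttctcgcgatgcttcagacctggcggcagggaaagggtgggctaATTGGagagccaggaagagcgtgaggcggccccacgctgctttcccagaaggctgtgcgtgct

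The upstream bases of the subunits shared no single motif of the 6 searched. The GC box GGGCGG was found in 6 of the 10 member windows, against 42.6% of 35116 RefSeq windows of the same length. The CCAAT box was found in 5 of the 10, against 32.0% of all windows. The ETS core CCGGAAG was found in the CCT2 window shown, against 8.52% of all windows. Pairs of heat shock elements, the sites of HSF1, were searched as GAANNTTC and TTCNNGAA, which can overlap each other. The first was found in TCP1 and in another CCT2 window, against 5.78% of all windows, and the second in CCT6B, against 6.62%. The TCP1 match lies where its window overlaps MRPL18. The E-box CACGTG was in none of the 10 and in 6.35% of all windows. The CCT7 window held none of these letters. These are matches of letters only.

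All 8 subunits were lower in GNPs-HDM2 cells than in Control cells, by 1.55-fold for TCP1 to 3.52-fold for CCT2. The deposited log2 values are relative to a per-probe-set baseline, so they carry no absolute level, and the levels of different subunits cannot be ranked. Single-symbol probe sets were averaged per gene, and a gene was called at a limma adjusted p under 0.05 over all genes. By that rule 8 of 8 subunits fell, while 25.1% of all genes were lower and 33.1% were higher. The GNPs-HDM2 arrays lay below every Control array for 8 of 8 subunits, as they did for 23.9% of all genes. The median difference of the 8 was -1.28, beside 0.25 over all genes. In bulk RNA, a smaller share of cells that express a gene and less of its RNA per cell cannot be told apart.

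CCT2, the beta subunit, changed most. Its log2 values were -1.89, -2.50 and -1.35 on the GNPs-HDM2 arrays, 0.16, 0.07 and -0.05 on the GNPs arrays and -0.05, -0.53 and 0.28 on the Control arrays. All 3 GNPs-HDM2 arrays lay well below the others. The difference from Control was -1.82 with a standard error of 0.29 (n = 3 per group; limma adjusted p = 0.00238).

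CCT6A, the zeta subunit, had log2 values of -1.72, -2.64 and -0.57 on the GNPs-HDM2 arrays, 0.00, -0.05 and -0.18 on the GNPs arrays and 0.04, -0.22 and -0.23 on the Control arrays. Its difference from Control was -1.51 with an error of 0.41 (limma adjusted p = 0.0130), and replicate 3 of GNPs-HDM2 lay much closer to Control than replicates 1 and 2. The same replicate was the closest to Control for each of the 8 subunits.

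CCT4, the delta subunit, and CCT7, the eta subunit, gave almost the same picture. CCT4 stood at -1.56, -2.18 and -0.61 on the GNPs-HDM2 arrays, against 0.00, 0.06 and -0.28 on the Control arrays (log2 difference -1.38, error 0.32, limma adjusted p = 0.00797). CCT7 stood at -1.48, -2.12 and -0.48 on the GNPs-HDM2 arrays, against -0.20, -0.09 and 0.13 on the Control arrays (difference -1.30, error 0.33, adjusted p = 0.0110). Replicate 2 of GNPs-HDM2 was the lowest array for both.

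CCT5, the epsilon subunit, is a gene in which inherited variants cause a sensory neuropathy, and CCT3 codes for the gamma subunit. CCT5 stood at -1.45, -1.89 and -0.56 on the GNPs-HDM2 arrays, against -0.14, -0.28 and 0.27 on the Control arrays (log2 difference -1.25, error 0.30, limma adjusted p = 0.00855). CCT3 stood at -1.49, -1.89 and -0.51 on the GNPs-HDM2 arrays, against -0.11, -0.24 and 0.09 on the Control arrays (difference -1.21, error 0.30, adjusted p = 0.00941). The groups did not overlap for either gene.

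The theta subunit CCT8 and the alpha subunit TCP1, the namesake of the family, had the smallest changes as gene means. CCT8 stood at -0.89, -1.27 and -0.41 on the GNPs-HDM2 arrays, against 0.02, 0.07 and -0.03 on the Control arrays (log2 difference -0.88, error 0.21, limma adjusted p = 0.00807). TCP1 stood at -0.72, -1.12 and -0.38 on the GNPs-HDM2 arrays, against -0.19, -0.34 and 0.21 on the Control arrays (difference -0.63, error 0.22, adjusted p = 0.0313). The place of CCT8 rests on a dim probe set: without dim probe sets its difference was -1.45, beyond those of CCT4, CCT7 and CCT3 given above. For TCP1 the gap between the groups was small, with GNPs-HDM2 replicate 3 at -0.38 and Control replicate 2 at -0.34. TCP1 lost its call when any of 7 of the 9 arrays was left out, all but Control replicate 2 and GNPs-HDM2 replicate 3 (limma adjusted p between 0.0501 and 0.115). It also lost the call when only the GNPs-HDM2 and Control arrays were fitted (adjusted p = 0.0840) and with array weights (adjusted p = 0.0991), and 7 of 8 subunits were then called. In the order of change from CCT2 to TCP1, each gap between neighbours was smaller than the sum of their standard errors. These errors include array shifts that the subunits share, so they do not measure the error of such a gap. Differences between subunits were not tested.

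**Figure D1:**
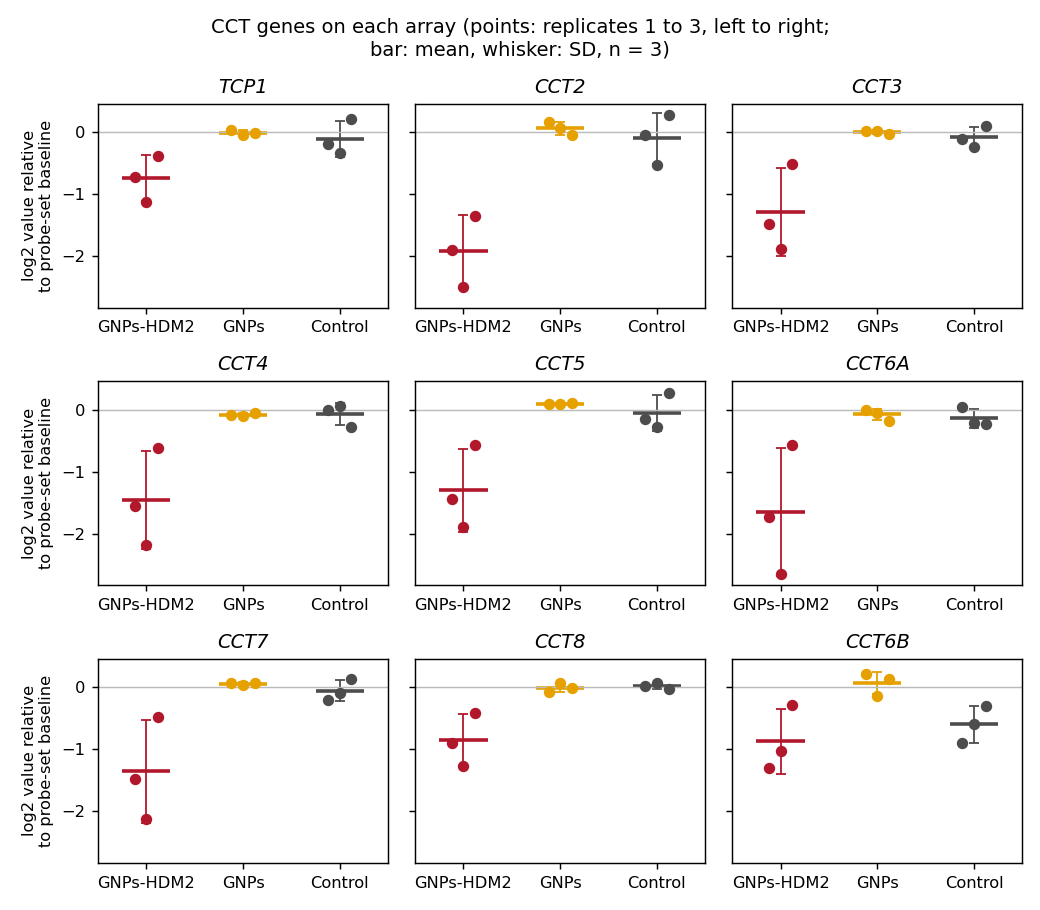
Log2 value relative to the probe-set baseline (vertical axis) for each CCT gene on each of the 9 arrays, by group. Points are replicates 1 to 3, bars are means and whiskers SD (n = 3); the GNPs-HDM2 points lie below the Control points for the 8 subunits, and CCT6B overlaps.

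The testis paralog CCT6B did not pass the test against Control. It stood at -1.30, -1.02 and -0.28 on the GNPs-HDM2 arrays, 0.22, -0.13 and 0.13 on the GNPs arrays and -0.89, -0.60 and -0.30 on the Control arrays. The Control arrays of CCT6B were themselves low, and the GNPs-HDM2 values overlapped them (log2 difference -0.27, error 0.26, limma adjusted p = 0.380). Without GNPs-HDM2 replicate 3 its difference was -0.56 and passed (adjusted p = 0.0222).

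CCT6A and its paralog were set against each other on each array. The log2 value of CCT6A minus that of CCT6B was -0.42, -1.62 and -0.29 on the GNPs-HDM2 arrays, against 0.93, 0.38 and 0.07 on the Control arrays. All GNPs-HDM2 arrays were below all Control arrays, with a mean difference of -1.24 (exact 2-sided permutation p = 0.1, the smallest that 3 against 3 arrays can give). Between GNPs and Control the difference was -0.61, and between GNPs-HDM2 and GNPs it was -0.63 (exact permutation p = 0.2 for each). The GNPs and Control difference was -1.01 with quantile normalization and -0.37 without Control replicate 1. The GNPs-HDM2 and GNPs difference was -0.063 with quantile normalization and -0.21 without GNPs-HDM2 replicate 2. Such a design cannot reach a p under 0.05.

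Within a gene the probe sets mostly moved alike, with exceptions that followed their signal level. Probe sets were sorted by baseline level, as far as the numeric precision of the stored values shows it, as bright (log2 level of 8 to 16), middle (4 to 8) or dim (2 to 4). Of the 26 member probe sets 23 were bright, 1 was middle and 2 were dim. In GNPs-HDM2 minus Control, 22 of the 26 were lower and 2 were higher, while 23.7% of all probe sets were lower and 24.9% were higher.

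The 2 that rose were the dim ones. The dim CCT5 probe set stood at 1.48, 1.31 and 0.34 on the GNPs-HDM2 arrays, against 0.36, 0.00 and 0.00 on the Control arrays (log2 difference 0.92, error 0.30, limma adjusted p = 0.0281). The dim CCT8 probe set stood at 0.98, 1.41 and 0.05 on the GNPs-HDM2 arrays, against -0.08, 0.00 and 0.00 on the Control arrays (difference 0.84, error 0.32, adjusted p = 0.0496). The GNPs-HDM2 arrays lay above all Control arrays for the CCT8 probe set and overlapped them for the CCT5 one, while they lay above for 47.2% of all dim probe sets. Among all dim probe sets 32.2% were called higher, and their median difference was 0.49. Their middle range ran from 0.25 to 0.76, and both member probe sets lay above it. With the bright probe sets alone, the difference was -1.73 for CCT5 and -1.45 for CCT8, so the dim ones made the changes of these gene means smaller.

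The bright probe sets fell, and so did most bright probe sets on the array. Of the 23 bright members 21 were lower, while 62.9% of all 9125 bright probe sets were lower. The median difference was -1.38 for the bright members and -1.24 for all bright probe sets, whose middle range ran from -1.90 to -0.53. The exceptions were CCT6B and the TCP1 probe set with the smaller change (log2 difference -0.43, error 0.28, limma adjusted p = 0.209). The other TCP1 probe set was called lower (difference -0.83, error 0.21, adjusted p = 0.0117).

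Probe sets of the same gene also differed in the size of their change, and these differences were not tested. The bright CCT5 probe set with the largest change stood at -2.99, -3.99 and -0.81 on the GNPs-HDM2 arrays, against -0.25, -0.49 and 0.32 on the Control arrays, a log2 difference of -2.46 with an error of 0.63. The other bright CCT5 probe sets lay between -1.53 and -1.42, and the middle one at -1.52, where 22.7% of all middle probe sets were lower. One CCT2 probe set was at -2.25 (error 0.37) and the other at -1.38 (error 0.29). CCT4 ranged from -1.80 to -1.06 and CCT3 from -1.38 to -1.07. The probe sequences were not given, and several member probe sets have suffixes (_x_at, _s_at) that the maker uses for probes shared with other transcripts, so close copies and pseudogenes of CCT genes may add to them.

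**Figure D2:**
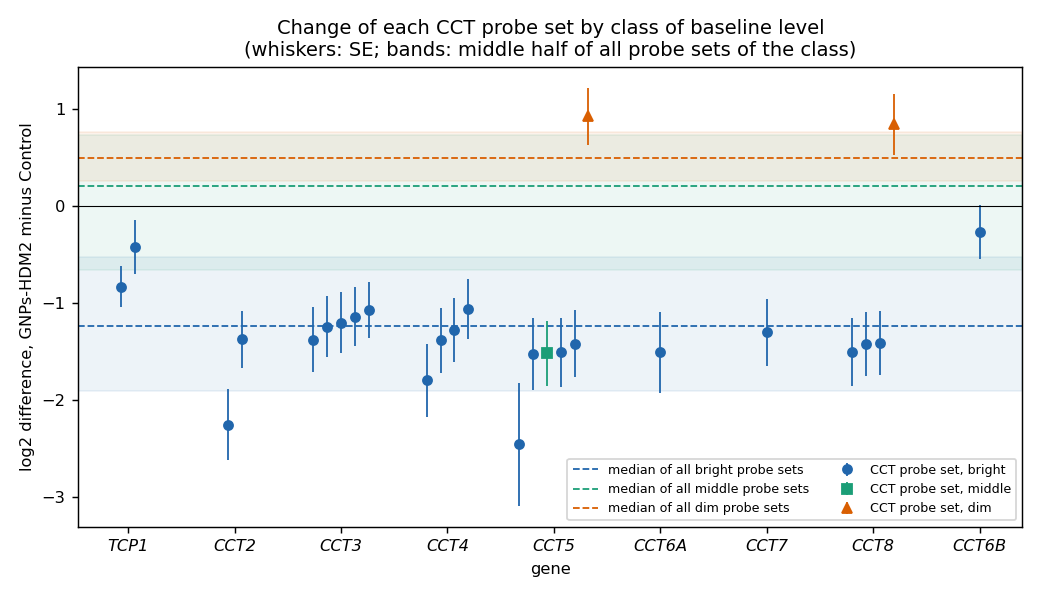
Log2 difference of GNPs-HDM2 minus Control (vertical axis) for each member probe set, grouped by gene, with SE whiskers and the class of baseline level as colour and shape. Dashed lines and bands are the median and the middle range of all probe sets of a class. The 2 dim CCT5 and CCT8 probe sets lie above 0 and above the band of the dim class, and the bright ones lie around the bright class.

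The fall of the subunits was therefore read against other bright genes, 5421 of which had a bright single-symbol probe set. Their median log2 difference of GNPs-HDM2 minus Control was -1.20, with quartiles at -1.86 and -0.45. On bright probe sets alone, 26.7% of these genes lay below CCT2, 37.8% below CCT6A, 40.5% below CCT8, 43.1% below CCT4, 46.2% below CCT7 and 49.6% below CCT3. CCT5 lay between CCT2 and CCT6A in this order. All 7 lay inside the quartiles of the bright genes and below their median, CCT3 only just. For TCP1 the share was 70.1%, and for CCT6B 78.9%. In GNPs-HDM2 minus GNPs the share below CCT3 was 51.9%.

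The spread among the 8 subunits was narrower than that among bright genes on all 9 arrays. On the GNPs-HDM2 arrays the SD over the subunits was 0.402, 0.507 and 0.300, beside 1.18, 1.41 and 0.665 over bright genes. On the GNPs arrays it was 0.107, 0.0859 and 0.0941, beside 0.317, 0.290 and 0.315. On the Control arrays it was 0.106, 0.213 and 0.212, beside 0.391, 0.287 and 0.393. The subunits also kept to the order of the arrays, with medians of -1.54, -2.17 and -0.57 on GNPs-HDM2 replicates 1, 2 and 3, where bright genes as a whole had medians of -1.35, -1.82 and -0.34. TCP1 was the highest subunit on each of the GNPs-HDM2 arrays. This is a description, since the subunits were chosen together and share arrays and level class. Averaging over more probe sets can also narrow a spread. The number of bright probe sets per gene was not matched between subunits and bright genes.

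**Figure D3:**
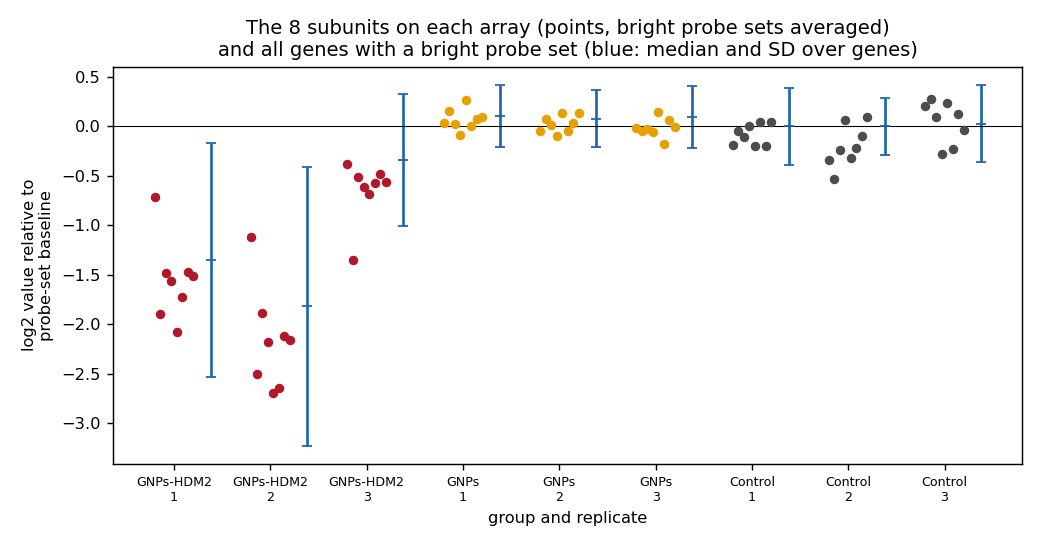
Log2 value relative to the probe-set baseline (vertical axis) of the 8 subunits, bright probe sets averaged per gene, on each of the 9 arrays (points). Blue marks are the median and SD over 5421 genes with a bright probe set; the points lie within the blue range on the GNPs-HDM2 arrays except for CCT2 on replicate 3, and replicate 2 lies lowest.

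Each array was then centred on the median of each level class, which removes the shift that bright probe sets share. Most of the fall of the subunits went with it. By this measure 2 of the 8 subunits were lower and none was higher, while 21.7% of all genes were lower and 22.5% were higher. The median log2 difference of the 8 was -0.14, beside 0.06 over all genes. CCT2 stood at -0.61 (error 0.21, limma adjusted p = 0.0361) and CCT5 at -0.55 (error 0.17, adjusted p = 0.0246). CCT6A (-0.30), CCT4 (-0.17), CCT7 (-0.10), CCT8 (-0.09) and CCT3 (0.00 to 2 decimals) did not pass.

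TCP1 and CCT6B lay on the other side of 0 after centring. TCP1 stood at 0.57 with an error of 0.21 and did not pass (limma adjusted p = 0.0518). CCT6B was higher in GNPs-HDM2 cells by 0.93 with an error of 0.23 (adjusted p = 0.0104), and it kept this call with array weights, with the replicate block and without each GNPs-HDM2 or Control array. By probe set, 4 of 26 members were lower (19.9% of all probe sets) and 2 were higher (18.5%). The lower ones were a CCT2 probe set (log2 difference -1.05), a CCT4 probe set (-0.59), a bright CCT5 probe set (-1.25) and the middle CCT5 probe set (-1.68). The higher ones were CCT6B and a TCP1 probe set (0.78).

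The centred calls of CCT2 and CCT5 were not firm. With array weights that allow each group its own spread, neither passed (adjusted p = 0.118 for CCT2 and 0.0767 for CCT5). CCT2 lost its call without Control replicate 1 or 3 or without GNPs-HDM2 replicate 2 or 3, and CCT5 without Control replicate 3 or without GNPs-HDM2 replicate 1 or 2. TCP1 was called higher without Control replicate 3 (0.72) and without GNPs-HDM2 replicate 3 (0.82), and CCT6A was called lower without GNPs-HDM2 replicate 3 (-0.42).

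**Figure D4:**
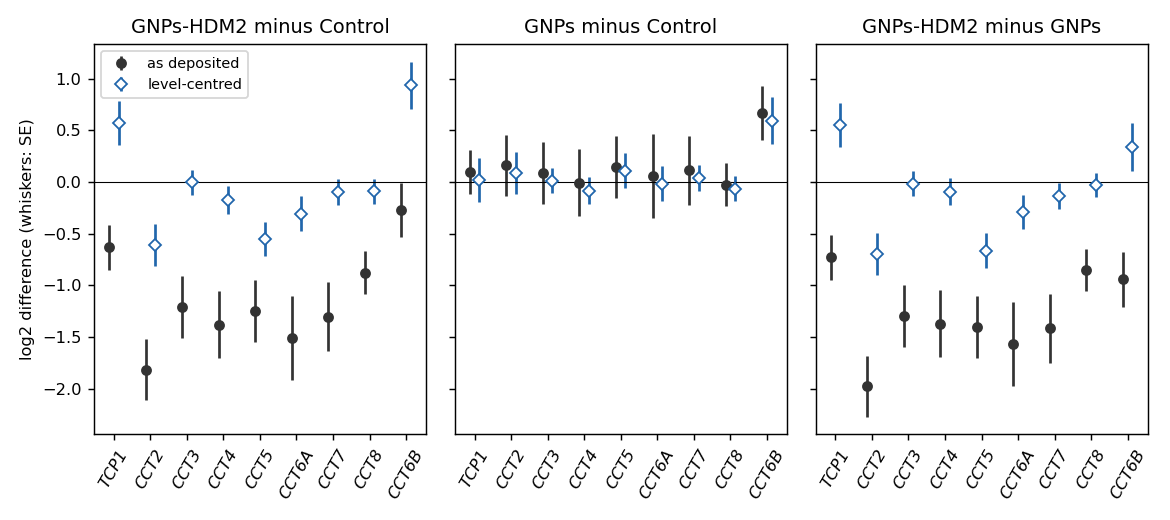
Log2 difference with SE whiskers (vertical axis) of each CCT gene in the 3 comparisons, for deposited values and after level centring. Deposited values of the 8 subunits lie below 0 in both comparisons with GNPs-HDM2, and after centring most lie close to 0, with CCT2 and CCT5 below and TCP1 and CCT6B above.

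Other measures moved with the GNPs-HDM2 arrays. The mean log2 value of 18 hybridization control probe sets, spiked in after labelling, ran from 1.33 to 1.88 on the GNPs-HDM2 arrays, -0.54 to 0.15 on the GNPs arrays and -0.43 to -0.32 on the Control arrays. The mean of 24 poly-A control probe sets, spiked in before labelling, ran from 0.79 to 1.56 on the GNPs-HDM2 arrays, -0.46 to 0.17 on the GNPs arrays and -1.36 to -0.05 on the Control arrays. The median SD within a group over all genes was 0.396 for GNPs-HDM2, 0.0892 for GNPs and 0.151 for Control, and over the 8 subunits it was 0.693 for GNPs-HDM2, 0.0368 for GNPs and 0.175 for Control. The part of the control probe sets, of array level and of replicate spread in the subunit result was not tested.

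Markers of the labelled cell type could be checked only by level class, which gives neither detection nor an order of levels between genes. Of 10 photoreceptor and retinoblastoma markers 6 had a bright probe set, among them CRX, OTX2 and RBP3, and 4 reached the middle class. Of the fibroblast markers 5 of 6 reached the middle class, as did 3 of 4 pigment epithelium markers, while all 3 blood markers measured were dim or without a class. In GNPs-HDM2 minus Control, 5 of the 10 photoreceptor and retinoblastoma markers were lower, beside 25.1% of all genes. Higher were 3 of 6 fibroblast, 3 of 3 blood and 4 of 4 pigment epithelium markers. Over all genes 33.1% were higher, as were 32.2% of dim probe sets. After level centring 4 of the 10 were lower and 1 was higher, beside 21.7% and 22.5% of all genes. By that measure 2 of 6 fibroblast, 0 of 3 blood and 2 of 4 pigment epithelium markers were higher. As deposited, the mean log2 value of the fibroblast list ran from 0.27 to 0.75 on the GNPs-HDM2 arrays and 0.00 to 0.09 on the Control arrays. The blood list ran from 0.46 to 0.65 on the GNPs-HDM2 arrays and -0.06 to 0.01 on the Control arrays. The pigment epithelium list ran from 0.44 to 1.03 on the GNPs-HDM2 arrays and -0.08 to -0.01 on the Control arrays. The photoreceptor list ran from -1.05 to 0.16 on the GNPs-HDM2 arrays and 0.29 to 0.89 on the Control arrays. Their part in the subunit result was not tested.

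No subunit was called with bare particles. Of the 8 subunits 0 were called by limma in GNPs minus Control, while 0% of all genes were lower and 0.0221% were higher. At an unadjusted p under 0.05 the limma count was 0 of 8 subunits, against 972 of all 18132 genes (5.36%). Of the 26 member probe sets 0 were called, against 0% lower and 0.00811% higher over all, and 1 had an unadjusted p under 0.05. The log2 differences of the subunits ran from -0.02 for CCT8 to 0.16 for CCT2, with errors between 0.21 and 0.41. These errors and p-values come from the fit of all arrays, so they include the spread of the GNPs-HDM2 arrays. The median SD over the subunits was 0.693 there, beside 0.0368 for GNPs and 0.175 for Control, which makes the test less sensitive. No subunit was called either when only GNPs and Control arrays were fitted or with array weights. On the GNPs arrays CCT5 stood at 0.10, 0.09 and 0.10, CCT4 at -0.09, -0.10 and -0.05 and CCT7 at 0.07, 0.04 and 0.07. CCT3 stood there at 0.02, 0.02 and -0.03, TCP1 at 0.04, -0.05 and -0.01 and CCT8 at -0.07, 0.07 and -0.01. The gene means of CCT5 and CCT8 include their dim probe sets. On bright probe sets alone CCT5 stood at 0.27, 0.13 and 0.15 on the GNPs arrays. Its difference from Control was then 0.27, and that of CCT8 was 0.04.

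CCT6B did not pass with bare particles either, with a log2 difference of 0.67 and an error of 0.26 (limma adjusted p = 0.864). Its GNPs arrays lay above all its Control arrays, as they did for 12.4% of all genes. It was called with array weights (adjusted p = 0.0395) and after quantile normalization (1.32, adjusted p = 0.00585).

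GNPs-HDM2 and GNPs cells differed much as GNPs-HDM2 and Control cells did, and both comparisons use the same GNPs-HDM2 arrays. All 8 subunits were lower, where 29.1% of all genes were lower and 43.2% were higher, and the groups did not overlap for 8 of 8, where 30.5% of all genes lay apart and lower. Differences ran from -0.73 for TCP1 (error 0.22, limma adjusted p = 0.0131) to -1.98 for CCT2 (error 0.29, adjusted p = 8.68e-04), with -1.57 for CCT6A, -1.42 for CCT7, -1.40 for CCT5, -1.37 for CCT4, -1.30 for CCT3 and -0.85 for CCT8. CCT6B was also lower here (-0.94, error 0.26, adjusted p = 0.0105). Of the 26 member probe sets 23 were lower and the 2 dim ones higher, while 28.3% of all probe sets were lower and 36.3% were higher.

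After level centring, 2 subunits were lower than in GNPs cells and 1 was higher, where 26.5% of all genes were lower and 31.0% were higher. CCT2 stood at -0.70 (limma adjusted p = 0.0160), CCT5 at -0.66 (adjusted p = 0.00794) and TCP1 at 0.55 (adjusted p = 0.0491). CCT6B stood at 0.34 and did not pass. By probe set 4 of 26 were lower and 1 was higher, where 25.0% of all probe sets were lower and 26.2% were higher.

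Lists of genes that work with the chaperonin are set beside the 25.1% of all genes and the 62.9% of bright probe sets that were lower in GNPs-HDM2 minus Control. Prefoldin, which hands unfolded actin and tubulin to CCT, had 4 of 6 genes lower in GNPs-HDM2 minus Control and none higher (median log2 difference -1.14). VBP1 stood at -1.78, PFDN6 at -1.71 and PFDN2 at -1.17, and after level centring VBP1 (-0.58) and PFDN6 (-1.99) remained called while PFDN2 (0.04) did not. After centring the list had 2 genes lower and 1 higher, with a median of 0.06, the same to 2 decimals as over all genes. Of the phosducin-like co-factors 3 of 5 were lower and none higher, and 2 were lower and none higher after centring. PDCL, which helps CCT assemble G protein beta and gamma subunits, stood at -2.01 with an error of 0.14 (limma adjusted p = 2.08e-04) and at -2.23 after centring (adjusted p = 1.05e-04). TXNDC9 stood at -0.96 (-0.78 after centring, called) and PDCL3 at -1.08 (-0.56, not called).

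Of 5 other chaperonin genes 3 were lower and 1 was higher. MKKS and BBS10, chaperonin-like proteins that join CCT in BBSome assembly, stood at -1.50 and -1.05 and after centring at -1.47 and -1.36, with calls both ways. HSPD1, the mitochondrial chaperonin, stood at -0.71 and after centring at 0.11 with no call. BBS12, another chaperonin-like gene of this list, was higher by 0.45, with no call after centring (-0.02).

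Among genes whose products CCT folds, with tubulin cofactors listed beside them, the picture was mixed. Of 15 tubulin and tubulin cofactor genes 8 were lower and 1 was higher, with TUBG1 at -1.43, the cofactor TBCE at -1.37, TUBB4B at -0.98 and TUBA1C at 0.84 in log2 difference. After level centring 2 of the 15 were lower and 2 were higher, with TBCE (-0.85) and TUBA1C (1.36) among them. Of 3 actin and related genes 2 were lower, ACTR3 of the Arp2/3 complex at -2.51 and ACTG1 at -0.78. ACTR3 was at -1.98 after centring and ACTG1 was higher there (0.43, limma adjusted p = 0.0170). By that measure 1 of the 3 was lower and 2 were higher. Of 15 other client genes 4 were lower and 3 were higher. After centring 4 of the 15 were lower and 2 were higher, beside 21.7% and 22.5% of all genes. The rod transducin subunit gene GNB1 (-1.81) and the phosphatase subunit gene PPP2R2A (-1.78) remained lower after centring, at -0.61 and -0.57. CCNE1 stood at -0.88, and among the higher ones were FZR1 (0.85), the mTOR complex gene MLST8 (0.48) and the telomerase factor gene WRAP53 (0.44). HSF1, the factor that drives heat shock genes, was higher by 0.73 with an error of 0.18 (adjusted p = 0.0101) and by 1.94 after centring.

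Profiles of other genes were set against the mean profile of the 8 subunits. Likeness was the root mean square difference over the 9 arrays, each profile less its own mean, in log2 units. Outside the members the closest were CSNK1A1, a casein kinase, at 0.0505, RAN, the GTPase of nuclear transport, at 0.0664, ZNF689 at 0.0695, the splicing regulator HNRNPLL at 0.0732 and CBFB, a partner of RUNX factors, at 0.0744. The median over all genes was 0.854. The profiles were of deposited values, so they hold the shift that bright probe sets share, and no median over bright genes was taken. Among members CCT3 lay at 0.0542, CCT5 at 0.0916, CCT7 at 0.10, CCT4 at 0.164, CCT6A at 0.233, CCT8 at 0.252, CCT2 at 0.327, TCP1 at 0.331 and CCT6B at 0.472. CSNK1A1 was closer to the subunit mean than any subunit was, CCT3 came next, ahead of RAN, and CCT2 and TCP1 were the subunits farthest from it.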

How the data were processed

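The authors deposited summarized log values of 9 arrays, read here as log2 relative to a per-probe-set baseline because 59.69% of probe sets held an exact 0. Their tool and log base are not given in the sources used here, and fold changes rest on base 2. Per the labels' protocols, total RNA was turned into biotinylated RNA. From the 49395 probe sets, 102 array controls were left out. By the platform annotation 44988 of the rest had 1 symbol, 1832 had several and 2473 had none. The number of arrays limits the precision.

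Genes were averaged from single-symbol probe sets and tested with limma 3.58.1 under R 4.3.3 (lmFit, eBayes, all 9 arrays in one fit, 2-sided), with Benjamini-Hochberg adjustment over all 18132 genes or 49293 probe sets. Files were read with the R package data.table (version 1.17.8). Level classes were read from the step between storable values, which grows with the level a value had before subtraction (9125 bright, 22375 middle, 13166 dim and 4627 without a class), and level centring subtracted each class median from each array. The fit and the classes were tested on simulated data. Every member was named, and from each list up to 3 genes each way with the smallest adjusted p, beside the 5 genes most like the subunits. Members and lists were chosen with earlier results of these data known.

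Replicate numbers were shared by the groups. Deviations of same-numbered GNPs-HDM2 and Control arrays correlated at 0.156, 0.107 and 0.29, and arrays with different numbers were not compared. These values passed a rule of over 0.1 in every pair, but the main fit held no replicate term and the permutation test was unpaired. The replicate block was run only as an alternative, and the labels do not say what a number stands for. For GNPs and Control the values were -0.038, 0.001 and 0.067, and for GNPs-HDM2 and GNPs -0.056, 0.103 and 0.014. Alternatives were quantile normalization, median centring, level centring, dim probe sets left out, gene medians, only the compared groups, trend and robust settings, array weights, the replicate block and leaving out each array.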

Additional observations from a re-analysis of the deposited data

Results flagged for a closer look

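Outside the 26 member probe sets, 2 dim probe sets that name TCP1 together with a small nucleolar RNA lay higher on every GNPs-HDM2 array than on every Control array, as 47.2% of all dim probe sets did. The probe set annotated to TCP1 and SNORA29, stood at 0.05, 1.02 and 0.57 on the GNPs-HDM2 arrays, against -0.19, -0.06 and -0.24 on the Control arrays, a log2 difference of 0.71 (limma adjusted p = 0.0368). The probe set annotated to TCP1 and SNORA20, stood at 0.43, 0.76 and 0.74 on the GNPs-HDM2 arrays, against 0.00, 0.22 and -0.13 on the Control arrays, a log2 difference of 0.61 (adjusted p = 0.0238). Both small nucleolar RNAs are encoded in introns of TCP1, and which transcript the probes read was not tested. Of all dim probe sets 32.2% were called higher, and their median log2 difference was 0.49. Another dim probe set, annotated to CCT6A, 2 of its pseudogenes and SNORA22, had a difference of 0.87 and did not pass (adjusted p = 0.0594). The single-symbol TCP1 probe sets were bright and had negative differences.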

How the results depend on the processing

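Counts and sizes of the falls of the subunits changed with the scaling of the arrays. For all genes and all probe sets, shares called are given above only for the main fit and the level-centred fit. The counts under other settings in this section therefore have no background beside them. In GNPs-HDM2 minus Control, quantile normalization left 0 of 8 subunits and 2 of 26 probe sets called, with a median log2 difference of -0.40, and level centring left 2 subunits and 6 probe sets, 4 of these lower and 2 higher, with a median of -0.14. TCP1 was then at 0.57, and CCT6B was at 0.77 with quantile normalization and at 0.93 with level centring. Leaving out 1 array gave 7 to 8 subunits, 16 to 26 probe sets and a median of -1.68 to -0.94. In GNPs-HDM2 minus GNPs, quantile normalization left 6 of 8 subunits and 14 probe sets called and a median of -0.64, and level centring left 3 subunits called, 2 lower and 1 higher, and 5 probe sets, 4 lower and 1 higher, with a median of -0.11, TCP1 at 0.55 and CCT6B at 0.34.

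In GNPs minus Control, quantile normalization called 1 probe set and gave a median of 0.33. Values near 0 changed sign for CCT4 (0.10 with quantile normalization, 0.026 with gene medians, and -0.11 to 0.058 leaving out 1 array), CCT6A (-0.014 with level centring) and CCT8 (0.039 without dim probe sets, 0.048 with gene medians, and -0.062 to 0.0071 leaving out 1 array). Leaving out 1 array gave -0.019 to 0.26 for TCP1 and -0.056 to 0.35 for CCT2.

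The level-centred result of GNPs-HDM2 minus Control was varied by alternatives chosen after seeing the data. Array weights left 0 subunits and 3 probe sets called. Leaving out 1 array gave 0 to 3 subunits, with 0 without GNPs-HDM2 replicate 2, 1 without Control replicate 1 or 3 or GNPs-HDM2 replicate 1 and 3 without GNPs-HDM2 replicate 3. It gave 1 to 8 probe sets, and CCT3 lay at -0.074 to 0.073.

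With the replicate block, 8 of 8 subunits remained lower in both comparisons with GNPs-HDM2, CCT2 and CCT5 remained lower after level centring, and no call of a subunit changed. TCP1 passed at a limma adjusted p of 0.0206 with the block, but not with only the compared groups (0.0840) or with array weights (0.0991). With the block 23 probe sets were called against Control and 26 against GNPs. For GNPs with either other group, same-numbered arrays did not pass the rule of a correlation over 0.1 in every pair. What a replicate number stands for is not known for any group. Array signal is relative to a baseline, so neither detection nor a level above background can be given, and the cause of the changes with scaling was not tested.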
